A study of Homo sapiens with 24 samples.

Results

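The integrated stress response and the unfolded protein response were followed through 9 genes: ATF4, DDIT3, PPP1R15A, PPP1R15B, ASNS, CHAC1, TRIB3, HSPA5 and XBP1. They were found by matching the Ensembl gene IDs of the count table to these symbols in the Gencode annotation of hg19. All 9 were among the 20345 gene IDs of the table, and all 9 passed the filter on low counts in every comparison. Their counts ranged from 281 for DDIT3 to 108199 for HSPA5 in a single library. The cells were A2058, an established human melanoma line, transfected with a control siRNA (siCTRL) or an siRNA against LSM14A (siLSM14A), an RNA-binding protein of P-bodies and the human relative of yeast Scd6. They were left untreated (NT) or exposed to hydroxyurea (HU), a genotoxic agent that inhibits ribonucleotide reductase, at 10 mM for 2 h. For each of the 4 conditions there were 3 total RNA libraries and 3 made from heavy polysomal fractions of a sucrose gradient, 24 libraries in all. All cells, controls included, carried a transfected siRNA and received cycloheximide, which holds ribosomes on mRNA, shortly before collection.

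The integrated stress response starts with phosphorylation of the initiation factor eIF2 alpha by a stress-activated kinase, which lowers translation of most mRNAs. A few mRNAs with short upstream open reading frames, ATF4 among them, are then translated better, and the ATF4 protein switches on genes of amino acid supply and stress handling. The unfolded protein response runs alongside it from the endoplasmic reticulum, where the kinase PERK feeds into eIF2 alpha, and the sensors IRE1 and ATF6 raise chaperones. ATF4 and DDIT3 (CHOP) are transcription factors of the response. PPP1R15A (GADD34) and PPP1R15B (CReP) direct a phosphatase to eIF2 alpha, the former as an inducible and the latter as a constitutive subunit. ASNS makes asparagine, CHAC1 degrades glutathione and TRIB3 is a pseudokinase that feeds back on ATF4, and all are ATF4 targets. HSPA5 (BiP) is the main chaperone of the endoplasmic reticulum, and XBP1 is the transcription factor whose mRNA IRE1 splices. Counts per gene do not separate the spliced and unspliced XBP1 forms.

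Upstream start codons are shown first, since they are the feature through which several of these mRNAs are known to respond. In the representative annotated transcripts (GRCh37), 5 of the 9 genes had an ATG upstream of the main start codon. ATF4 and DDIT3 had 3 each, PPP1R15A, PPP1R15B and TRIB3 had 2 each, and ASNS, CHAC1, HSPA5 and XBP1 had 0. The sequences below are 21 bases of transcript around the start codon, which is in capitals, and the coordinates are those of the start codon. The first pair are the upstream frames of ATF4 of 3 and 59 codons, of which the longer one overlaps the main frame, followed by the main start.
ATF4 upstream ATG, frame of 3 codons (chr22:39916653-39916655, + strand): gccaccATGgcgtattagggg
ATF4 upstream ATG, overlapping frame of 59 codons (chr22:39916752-39916754, + strand): taagccATGgcgcttctcacg
ATF4 main ATG (chr22:39917451-39917453, + strand): cgcaacATGaccgaaatgagc

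The upstream starts of the other 4 genes are given for comparison, each the upstream ATG of its gene that opens the frame named.
DDIT3 upstream ATG, frame of 34 codons (chr12:57914261-57914263, - strand): cgtatcATGttaaagatgagc
PPP1R15A upstream ATG, frame of 26 codons (chr19:49375811-49375813, + strand): ggtgagATGaacgcgctggcc
PPP1R15B upstream ATG, frame of 51 codons (chr1:204380768-204380770, - strand): gccaggATGgaagtcgcatca
TRIB3 upstream ATG, frame of 14 codons (chr20:361484-361486, + strand): cgggggATGgtgcgatcccgg
Both ATF4 upstream starts shown, and those of PPP1R15B and TRIB3, had a purine at position -3 and a G at position 4, counted from the A of the ATG as 1. The DDIT3 and PPP1R15A starts shown had only the purine. The upstream starts not shown matched no better than those shown for the same gene. Those of ATF4 (1 codon), DDIT3 (73 codons, overlapping the main frame), PPP1R15A (22 codons) and TRIB3 (77 codons) had neither letter. The DDIT3 frame of 31 codons had only the purine, and the PPP1R15B frame of 8 codons had only the G. The share of all genes with such letters was not counted. These matches describe the annotated sequence, and use of the frames was not measured here.

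The libraries held 24789280 to 44897501 counts each. LSM14A averaged 84.3 ± 2.33 CPM (SD, n = 3), the usual scaling of read counts to library size, in total RNA of siCTRL NT cells against 7.52 ± 0.708 in siLSM14A NT cells, and 85.9 ± 5.08 against 6.81 ± 0.794 upon HU. Melanocyte lineage markers were high in total RNA, with SOX10 at 550 to 666 CPM, PMEL at 306 to 381 and MITF at 115 to 131. MLANA was low at 5.48 to 10.2 CPM and MIA was at 0.213 to 0.498. Markers of blood and epithelial cells (PTPRC, CD3E, EPCAM) were at most 0.217 CPM. In siLSM14A NT cells, the total and polysomal libraries numbered 1, and those numbered 3, deviated from their group means in opposite directions (Pearson's r over genes of -0.308 and -0.231), and the total library numbered 3 followed the polysomal library numbered 1 (r of 0.415). In the other 3 conditions same-numbered libraries correlated at 0.058 to 0.238. The tests without pairing do not use the numbers, but ratios of same-numbered siLSM14A NT libraries below are affected by it.

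Per kilobase of exon, with the exons of all annotated transcripts merged, ATF4 and HSPA5 led in total RNA and CHAC1 was lowest. This order depends on the merged length, which was 2613 bases for ATF4, 6530 for HSPA5, 4896 for ASNS and 9335 for PPP1R15B. Which transcripts the cells held was not measured. Without division by length, HSPA5 averaged 1200 CPM and ATF4 549 CPM in siCTRL NT total RNA. The median over the 12 total RNA libraries was 209 CPM per kilobase for ATF4 and 200.0 for HSPA5, with overlapping ranges of 185 to 217 and 174 to 209. XBP1 followed at 40.9, apart from both neighbours in the order. TRIB3 (25.5), PPP1R15A (22.3), DDIT3 (18.2), ASNS (16.5), PPP1R15B (16.3) and CHAC1 (11.4) formed a continuous lower group in which each gene overlapped the next. In polysomal RNA the order changed. HSPA5 stood alone at a median of 402 CPM per kilobase and ATF4 was second at 134. TRIB3 (44.4), XBP1 (43.8) and ASNS (42.4) overlapped, PPP1R15A (23.6) overlapped CHAC1 (20.3), and DDIT3 (9.47) and PPP1R15B (8.71) came last. In the annotation, 49.33% of the ASNS exon bases are shared with a long noncoding RNA of the same strand, and 27.16% of those of DDIT3 lie opposite exons of MARS1.

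**Figure D1:**
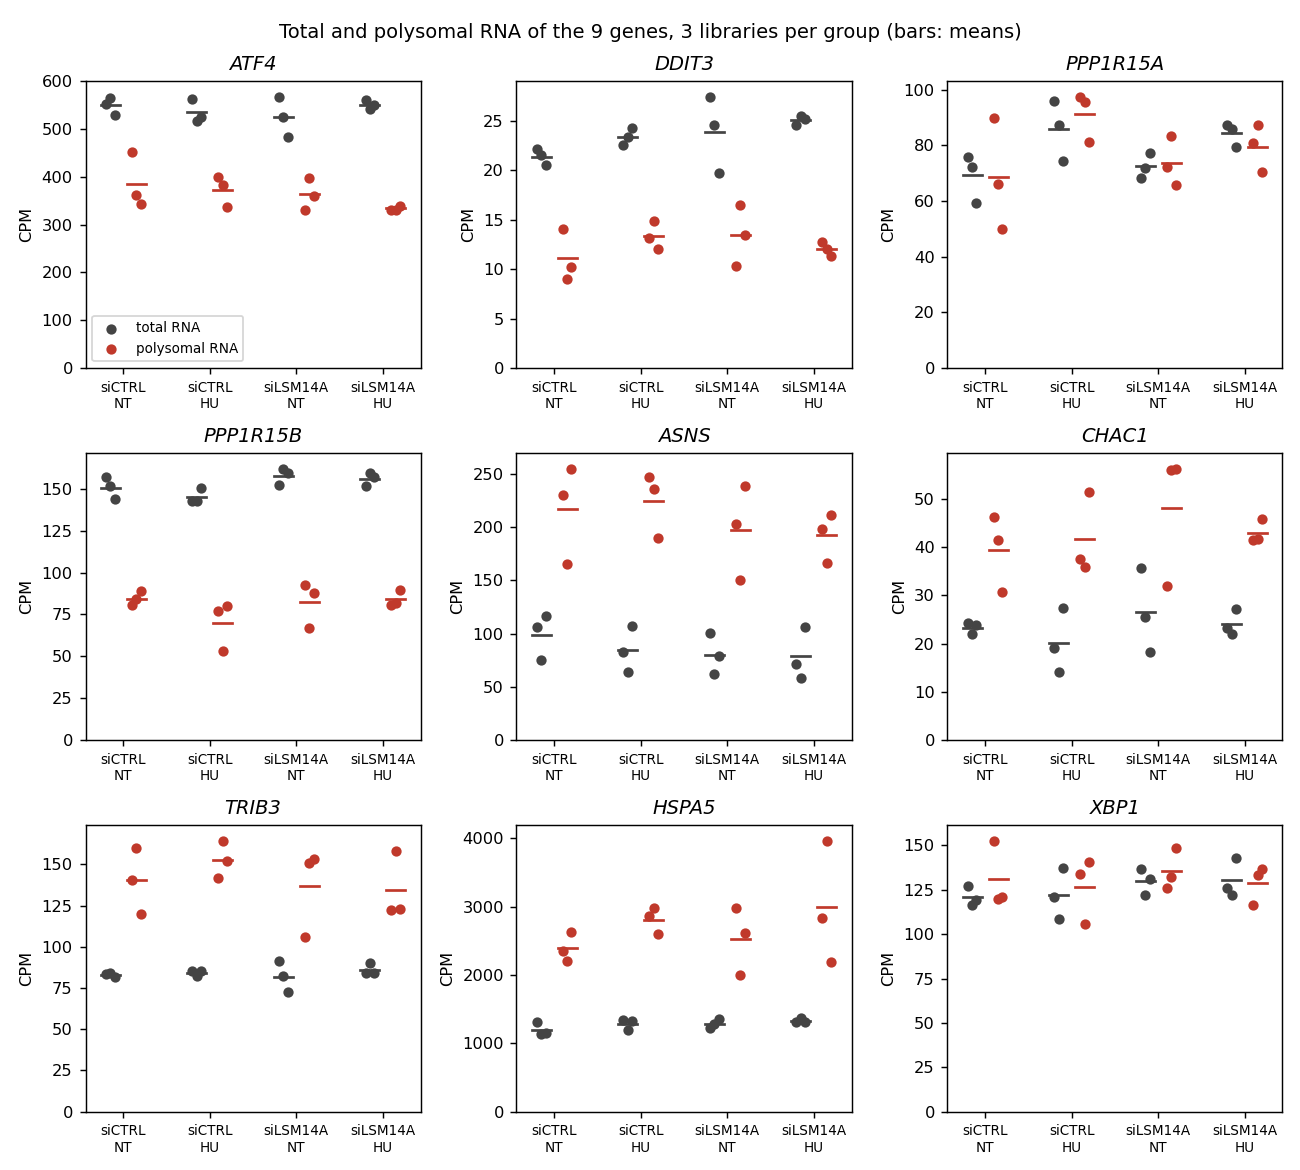
CPM (linear axes from 0) of the 9 genes in total RNA (grey) and polysomal RNA (red) for the 4 conditions, with 1 point per library and a bar at the mean of 3. The fractions are apart for ATF4, DDIT3, PPP1R15B, ASNS, TRIB3 and HSPA5, and the 4 conditions largely overlap within each fraction.

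To ask how heavily each mRNA was loaded on polysomes, polysomal RNA was compared with total RNA over all 4 conditions. ATF4, DDIT3 and PPP1R15B were lower in polysomal than in total RNA, ASNS, HSPA5, CHAC1 and TRIB3 were higher, and PPP1R15A and XBP1 did not pass the test. This made 7 of 9 at an adjusted p under 0.05 (edgeR quasi-likelihood test, Benjamini-Hochberg), in a comparison in which 84.4% of 12855 tested genes passed, 40.2% as higher and 44.2% as lower. A count of 7 is near the background. The values are relative to the other mRNAs of each fraction, so that a low ratio is low beside other mRNAs.

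ATF4 was 549 ± 17.3 CPM in total and 385 ± 58.0 CPM in polysomal RNA of siCTRL NT cells (SD, n = 3). The log2 ratio of same-numbered libraries was -0.29, -0.64 and -0.63 in siCTRL NT, -0.49, -0.44 and -0.64 in siCTRL HU, -0.77, -0.40 and -0.42 in siLSM14A NT, and -0.76, -0.71 and -0.70 in siLSM14A HU cells. All 12 ratios were below 0. The fitted log2 ratio was -0.57 ± 0.051 (SE, adjusted p = 5.32e-10, edgeR), and it was -0.51, -0.51, -0.51 and -0.72 when the 4 conditions were fitted alone, in the order above.

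DDIT3 was at 21.4 ± 0.816 CPM in total and 11.1 ± 2.61 CPM in polysomal RNA of siCTRL NT cells. Its log2 ratio lay between -1.40 and -0.56 in the 12 pairs, and its fitted value was -0.91 ± 0.079 (SE, adjusted p = 3.5e-10, edgeR). PPP1R15B, the constitutive phosphatase subunit, was at 151 ± 6.56 CPM in total and 84.5 ± 4.34 CPM in polysomal RNA of siCTRL NT cells. Its log2 ratio was between -1.43 and -0.69 in the 12 pairs and was fitted at -0.93 ± 0.062 (adjusted p = 4.58e-12, edgeR). Both genes were below 0 in every pair.

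PPP1R15A, the inducible subunit, had a log2 ratio near 0 before the GC correction below. This is a position beside other mRNAs and not an even split of its molecules. Its log2 ratio was 0.24, -0.13 and -0.25 in siCTRL NT and 0.02, 0.13 and 0.13 in siCTRL HU cells. It was 0.08, 0.21 and -0.24 in siLSM14A NT and -0.11, 0.02 and -0.17 in siLSM14A HU cells. It was above 0 in 7 of 12 pairs, and the fitted value was 0.00 with a 95% interval of -0.16 to 0.17 (adjusted p = 0.96, edgeR). XBP1 was above 0 in 8 of 12 pairs, and its fitted log2 ratio was 0.05 with an interval of -0.07 to 0.18 (adjusted p = 0.418, edgeR).

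ASNS had the highest ratio of the 9. It was at 99.1 ± 21.4 CPM in total and 217 ± 46.0 CPM in polysomal RNA of siCTRL NT cells. The log2 ratio was 1.12, 1.14 and 1.13 in siCTRL NT and 1.58, 1.89 and 0.82 in siCTRL HU cells. In siLSM14A cells it was 1.02, 1.29 and 1.60 without HU and 1.48, 1.52 and 0.99 with HU. The untreated siCTRL pairs lay close together while the other conditions spread widely. The fitted value was 1.28 ± 0.12 (SE, adjusted p = 1.18e-09, edgeR), which placed ASNS at the 96.1th percentile of all tested genes.

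HSPA5 was at 1200 ± 96.8 CPM in total and 2400 ± 221 CPM in polysomal RNA of siCTRL NT cells, and its fitted log2 ratio was 1.07 ± 0.080 (adjusted p = 2.96e-11, edgeR). All 12 pairs were above 0, from 0.63 to 1.54. TRIB3 was also above 0 in all 12 pairs, from 0.22 to 1.08, with a fitted value of 0.75 ± 0.066 (adjusted p = 5.02e-10, edgeR). CHAC1 was above 0 in 11 of 12 pairs, with a fitted value of 0.87 ± 0.122 (adjusted p = 6.58e-07, edgeR). The exception was pair 1 of siLSM14A NT, at -0.16 beside 1.13 and 1.62 in pairs 2 and 3. The lowest ratios of TRIB3 (0.22), DDIT3 (-1.40) and ATF4 (-0.77) belonged to the same pair, whose libraries did not deviate together. Without libraries numbered 1 of that condition, the fitted CHAC1 value was 1.00.

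**Figure D2:**
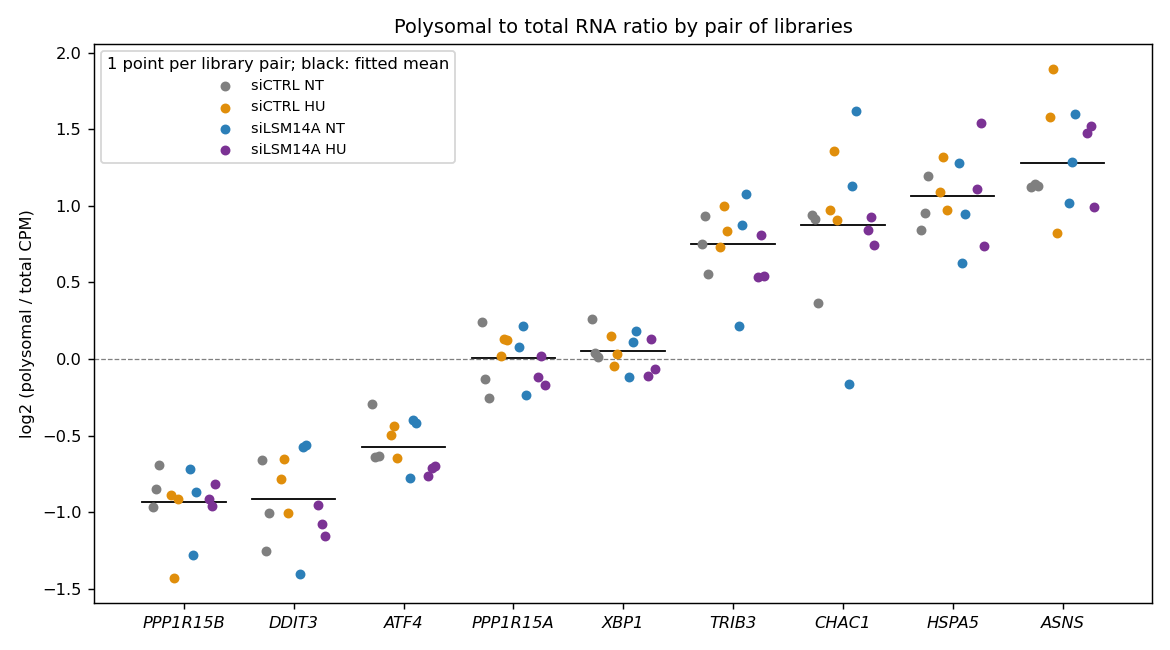
Log2 ratio of polysomal to total CPM for each pair of same-numbered libraries (points, coloured by condition) and the value fitted over all conditions (black lines), with genes ordered by the fitted value. PPP1R15B, DDIT3 and ATF4 lie below 0 in all 12 pairs, and TRIB3, HSPA5 and ASNS lie above 0 in all 12.

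The ratio moved with GC content across genes. Over the tested genes the Spearman correlation of the log2 ratio with the GC content of the exons was 0.67, against -0.01 with coding length, as a description across genes that share their libraries. The median log2 ratio was -0.53 for genes of 40 to 45% GC and 0.60 for genes of 55 to 60% GC. ATF4 (57.5% GC) was therefore at the 28.9th percentile of all genes but at the 4th among genes of 55 to 60% GC. PPP1R15A (57.0% GC) was at the 52.5th percentile overall and at the 17.2th in that class. ASNS (43.2% GC) and HSPA5 (44.2% GC) stood at the 99.5th and 99.2th percentiles of their class, whereas CHAC1 (62.7% GC) and TRIB3 (59.6% GC) were at the 62nd and 60.1th percentiles of theirs.

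With each library's GC trend removed, 78.3% of 12855 genes were called, and again 7 of the 9 genes, but not the same 7. PPP1R15A became lower in polysomal RNA, with a log2 ratio of -0.60 ± 0.060 (adjusted p = 3.77e-09, edgeR). XBP1 became higher at 0.25 ± 0.057 (adjusted p = 0.000427, edgeR). CHAC1 at 0.10 (adjusted p = 0.42) and TRIB3 at 0.03 (adjusted p = 0.441) no longer passed in that edgeR fit. ATF4 moved to -1.20, ASNS to 1.69 and HSPA5 to 1.42, while DDIT3 stayed at -0.95 and PPP1R15B moved to -0.51. Whether the GC trend comes from the libraries or from the mRNAs was not tested.

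**Figure D3:**
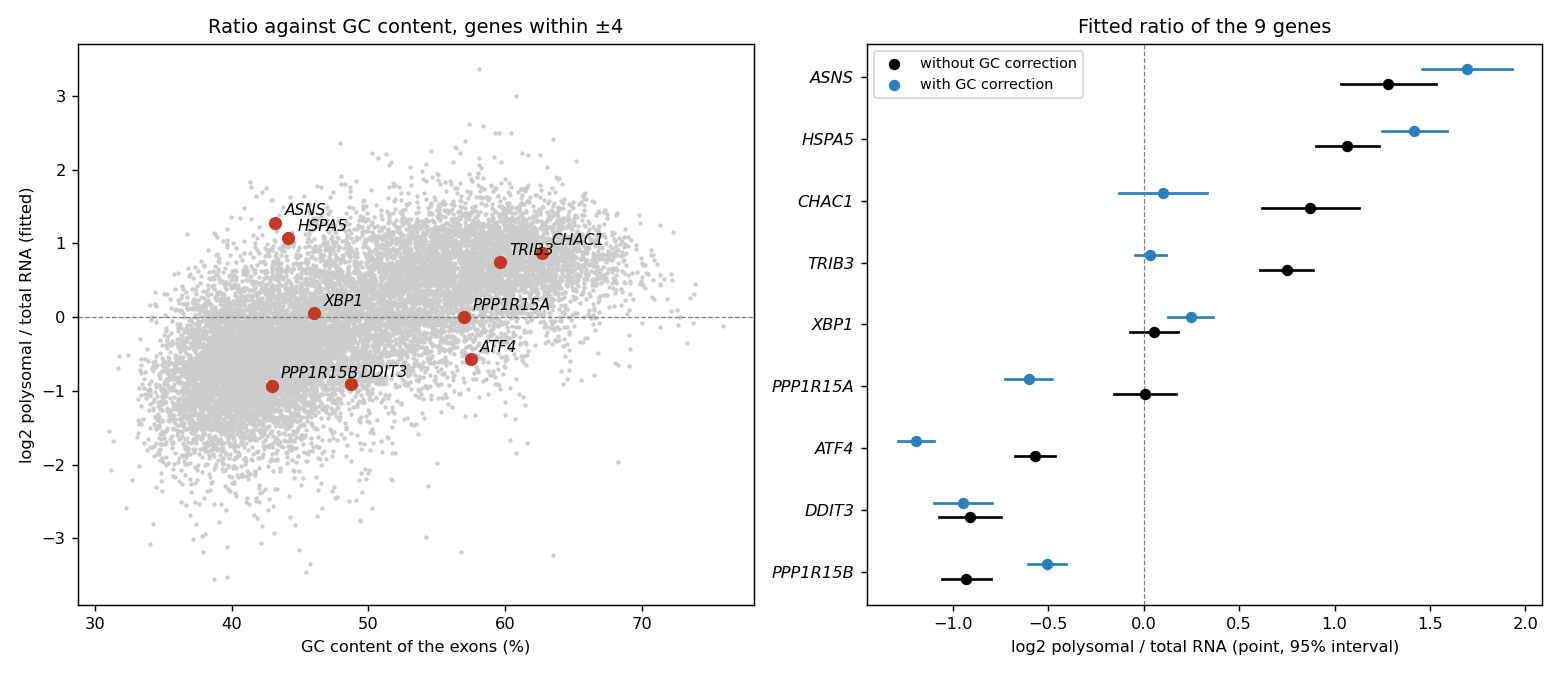
Left, the fitted log2 ratio of polysomal to total RNA against the GC content of the exons for tested genes with a ratio within ±4 (grey) with the 9 genes in red. Right, the fitted ratio and 95% interval of each gene without (black) and with (blue) the GC correction, where PPP1R15A moves from 0.00 to -0.60 and TRIB3 from 0.75 to 0.03.

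The ratios were then read beside the upstream start codons. Of 12761 tested genes with transcript features, 41.6% had at least 1 upstream ATG, and the median log2 ratio was 0.14 for 7453 genes with 0, -0.17 with 1, -0.32 with 2 and -0.59 for 1636 genes with 3 or more. Among genes of 55 to 60% GC the medians were 0.72 without and 0.45 with an upstream ATG. Of the 5 members with an upstream ATG, 3 were below 0 (ATF4, DDIT3, PPP1R15B), PPP1R15A was at 0.00 and TRIB3 was at 0.75. The 4 members without one were between 0.05 and 1.28. With the GC correction, the 5 members with an upstream ATG spanned -1.20 to 0.03 and the 4 without spanned 0.10 to 1.69. These are counts over 9 chosen genes and were not tested.

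Promoters were searched for the sites that the response factors are known to use, in RefSeq sequences (GRCh38.p14) from 250 bases before to 50 after each start, on both strands. The sequences below are shown because they mark which members hold an exact match in this window, with the match in capitals. Only the first promoter listed for each gene was searched. Sites elsewhere or with other letters were not searched, so a gene without a match may still hold one. The composite site of ATF4 with C/EBP factors, written TGATGNAA, was in the promoters of 3 of the 9 genes and in 3.67% of 27305 promoters.
ASNS (chr7:97872459-97872486, - strand, match at position -68 from the start site): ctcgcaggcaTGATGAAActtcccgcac
CHAC1 (chr15:40953252-40953279, + strand, match to the opposite strand at position -209): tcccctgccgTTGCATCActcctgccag
PPP1R15B (chr1:204412027-204412054, - strand, match at position -227): ccgccccggcTGATGCAAcctcacgctg
The endoplasmic reticulum stress element, searched as CCAAT, any 9 bases and CCACG, was in 2 of the 9 promoters and in 0.0806% of all promoters.
HSPA5 (chr9:125241386-125241414, - strand, match at position -66): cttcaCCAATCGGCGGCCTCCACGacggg
XBP1 (chr22:28800598-28800626, - strand, match at position -52): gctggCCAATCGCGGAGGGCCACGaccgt
The core TGACGTGG was in 0 of the 9 promoters and in 0.795% of all. A match describes these letters only, and binding was not measured.

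Among the 9 genes, ASNS and CHAC1 had the widest spread between libraries of the same condition. ASNS total RNA was 106, 75.1 and 116 CPM in siCTRL NT and 82.6, 63.5 and 107 CPM in siCTRL HU cells. It was 100.2, 61.6 and 78.5 CPM in siLSM14A NT and 71.2, 58.0 and 106 CPM in siLSM14A HU cells, so library 2 was the lowest in every condition. CHAC1 total RNA was 24.2, 21.99 and 23.8 CPM in siCTRL NT, 19.1, 14.04 and 27.4 CPM in siCTRL HU, 35.8, 25.6 and 18.3 CPM in siLSM14A NT and 23.1, 21.9 and 27.2 CPM in siLSM14A HU cells. The SD within conditions was 0.38 log2 units for ASNS and 0.35 for CHAC1, at the 93.6th and 92.6th percentiles of all genes. It was 0.07 for ATF4, 0.09 for TRIB3, 0.08 for HSPA5 and 0.05 for PPP1R15B, the last at the 6.6th percentile. DDIT3 (0.13), XBP1 (0.12) and PPP1R15A (0.14) lay between.

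The within-condition deviations of some members moved together over the 12 total RNA libraries, given here as a description. DDIT3 and TRIB3 correlated at a Pearson's r of 0.913 (Spearman's rho of 0.72), and ASNS and XBP1 at 0.897 (0.958). CHAC1 correlated with ASNS at 0.68 (0.797), with DDIT3 at 0.718 (0.594) and with TRIB3 at 0.692 (0.455), while ASNS and TRIB3 were at 0.114 (0.028). ATF4 correlated with TRIB3 at 0.783 (0.517) and with DDIT3 at 0.736 (0.427), so its rank correlations were lower. PPP1R15A ran against CHAC1 at -0.569 (-0.545) and ASNS at -0.543 (-0.427). The mean deviation of DDIT3, ASNS, CHAC1 and TRIB3 ranged from -0.23 in siLSM14A NT library 3 to 0.30 in siLSM14A NT library 1. The 5 genes with the closest pattern to that mean among 12666 were CTH (r of 0.955), ADM2 (0.954), PLLP (0.941), ATP5MJ (0.938) and SLC6A9 (0.933), and CTH is also on the list of ATF4 and CHOP target genes below.

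**Figure D4:**
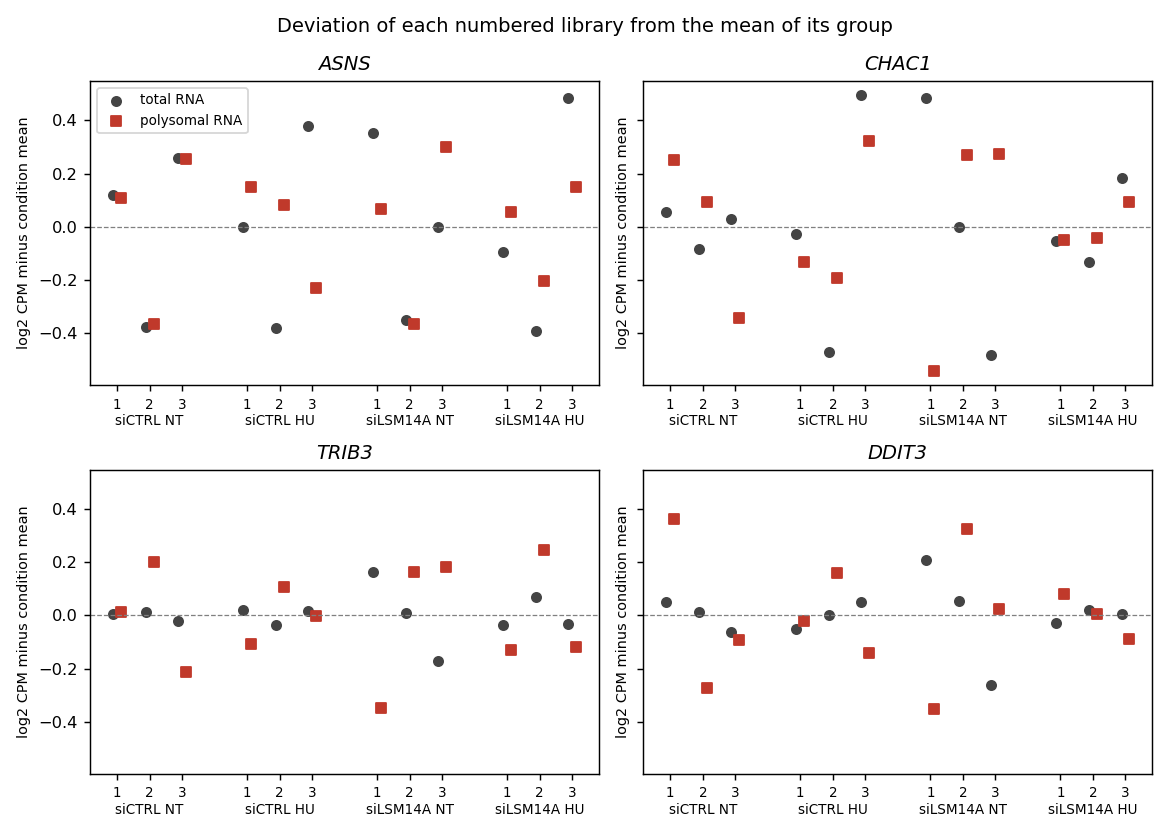
Deviation of each numbered library from the mean of its group (log2 CPM) for ASNS, CHAC1, TRIB3 and DDIT3 in total RNA (grey circles) and polysomal RNA (red squares). ASNS in total RNA is lowest in library 2 of every condition, and CHAC1 in siLSM14A NT goes in opposite directions in total and polysomal libraries 1 and 3.

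HU was next compared with no treatment, to ask whether the response genes rose upon genotoxic stress. PPP1R15A was the member with the largest rise in total RNA in both siRNA groups, but it passed only where the replicate number was a block. In untreated siCTRL cells its total RNA level was 76.02, 72.4 and 59.5 CPM, and after HU it was 96.1, 87.4 and 74.3 CPM. In untreated siLSM14A cells it was 68.3, 72.03 and 77.2 CPM, and after HU 87.4, 85.96 and 79.6 CPM. The siLSM14A groups did not overlap. The siCTRL groups overlapped by their nearest libraries, although each siCTRL HU library exceeded the siCTRL NT library of its number. Here and below, the share of all genes whose groups did not overlap was not counted, so such separation is given as a description only. The log2 change was 0.31 ± 0.099 in siCTRL cells (SE, adjusted p = 1, edgeR) and 0.21 ± 0.064 in siLSM14A cells (adjusted p = 0.855, edgeR).

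Same-numbered siCTRL libraries deviated together, and with the number as a block the siCTRL change of PPP1R15A was 0.31 ± 0.052 (adjusted p = 0.00397, edgeR), in a fit that called 0.12% of genes. In that fit 4 of the 9 passed at an unadjusted p under 0.05, beside 4.01% of genes. Besides PPP1R15A these were ASNS at -0.23 (95% interval -0.345 to -0.12, lower with HU in all 3 pairs), HSPA5 at 0.11 (0.02 to 0.19, higher in all 3) and CHAC1 at -0.24 (-0.44 to -0.04, lower in 2 of 3). Their adjusted p was 0.116 for ASNS and 0.999 for HSPA5 and CHAC1 (edgeR). The same block in siLSM14A cells, whose numbers did not pair, gave 0.21 ± 0.062 (adjusted p = 0.459, edgeR). Without a block, leaving out each library in turn gave 0.21 to 0.40 in siCTRL and 0.17 to 0.26 in siLSM14A cells. The 2 changes differed by -0.10 (siLSM14A minus siCTRL, 95% interval -0.38 to 0.175, adjusted p = 1, edgeR).

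Without the block, no other member passed upon HU in total RNA. The count of the 9 genes at an adjusted p under 0.05 was 0 in both siRNA groups, beside 0% of all tested genes, and DESeq2 also called 0 of the 9. At an unadjusted p under 0.05 only PPP1R15A passed in either group, against 1.44% of genes in siCTRL and 5.2% in siLSM14A cells. ATF4 averaged 549 ± 17.3 CPM in siCTRL NT and 534 ± 24 CPM in siCTRL HU total RNA, a log2 change of -0.04 with an interval of -0.15 to 0.075. DDIT3 was 22.1, 21.5 and 20.5 CPM without and 22.5, 23.4 and 24.2 CPM with HU in siCTRL cells. Its groups did not overlap, but the change of 0.13 ± 0.071 did not pass (adjusted p = 1, edgeR). HSPA5 changed by 0.11 (interval -0.04 to 0.25), TRIB3 by 0.02 (-0.09 to 0.13), XBP1 by 0.02 (-0.15 to 0.19) and PPP1R15B by -0.05 (-0.17 to 0.07) in siCTRL cells. For ASNS at -0.22 (-0.60 to 0.15) and CHAC1 at -0.20 (-0.58 to 0.18) the intervals were wider. In siLSM14A cells the other 8 changes lay between -0.14 (CHAC1) and 0.07 (DDIT3 and TRIB3).

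Polysomal RNA was compared in the same way. In siCTRL cells PPP1R15A was 89.8, 66.04 and 49.99 CPM without and 97.3, 95.7 and 81.2 CPM with HU, a log2 change of 0.41 ± 0.211 (adjusted p = 0.933, edgeR). With the block, for which these libraries met the pairing rule, the change was 0.45 ± 0.142 (adjusted p = 0.269, edgeR). PPP1R15A and PPP1R15B were then the 2 of 9 at an unadjusted p under 0.05, beside 10.3% of genes. PPP1R15B polysomal RNA in siCTRL cells was 80.4, 84.1 and 89.0 CPM without and 77.2, 53.1 and 79.9 CPM with HU, so that the groups did not overlap, with library 2 far below the others. Its change was -0.27 ± 0.182 (adjusted p = 0.933, edgeR), -0.29 with the block (adjusted p = 0.484, edgeR) and -0.11 without that library. The 9 changes lay between -0.27 and 0.41 in siCTRL and between -0.16 and 0.23 in siLSM14A cells. The count called was 0 of 9 in both, beside 0% of all genes, and DESeq2 called 0 of the 9 in both. In the edgeR fits of the groups compared, without the block, 0 of 9 passed unadjusted, beside 2.1% and 0.871% of genes. With all 24 libraries in one fit, PPP1R15A and PPP1R15B passed unadjusted in siCTRL cells, beside 1240 of 12855 genes.

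The ratio of polysomal to total RNA, which the study takes as a measure of translation efficiency, was tested as the interaction of fraction and treatment. In siCTRL cells it changed upon HU by -0.01 for ATF4 (interval -0.36 to 0.34), 0.14 for DDIT3 (-0.32 to 0.59), 0.10 for PPP1R15A (-0.44 to 0.65) and -0.22 for PPP1R15B (-0.615 to 0.18). The targets ASNS (0.28), CHAC1 (0.28) and TRIB3 (0.10) and the chaperone HSPA5 (0.13) were above 0 and XBP1 was at -0.06, and all of their intervals held 0. In siLSM14A cells ATF4 was at -0.20 (-0.49 to 0.09) and DDIT3 at -0.23 (-0.72 to 0.26), and the other 7 lay between -0.11 and 0.19. None of the 9 passed in either group (0 adjusted and 0 unadjusted, edgeR, and 0 adjusted by DESeq2), beside 0% of all genes adjusted and 2.31% and 1.41% unadjusted. The interval of CHAC1 ran from -0.38 to 0.94 in siCTRL and from -0.735 to 0.68 in siLSM14A cells. With the GC correction the siCTRL values of ATF4, PPP1R15A and TRIB3 were -0.16, -0.017 and -0.079, and that of ASNS was 0.41.

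**Figure D5:**
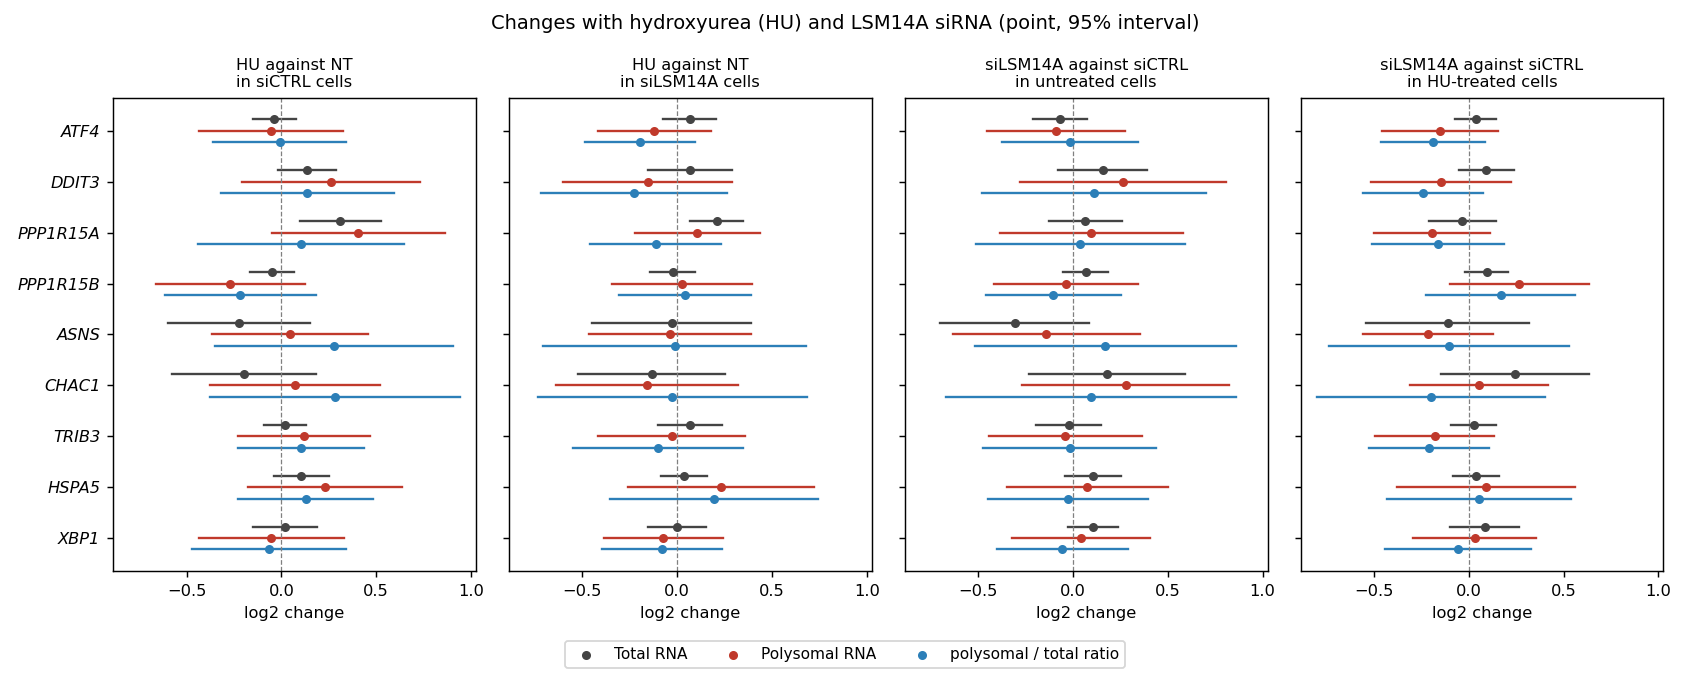
Log2 changes of the 9 genes with 95% intervals in total RNA (grey), polysomal RNA (red) and their ratio (blue), for HU in each siRNA group and for siLSM14A in each treatment. Only the total RNA intervals of PPP1R15A upon HU lie wholly on 1 side of 0.

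LSM14A depletion was compared with the control siRNA to ask whether loss of the protein altered the response genes. In untreated cells the total RNA changes of the 9 lay between -0.31 for ASNS (interval -0.70 to 0.08) and 0.18 for CHAC1 (-0.23 to 0.59). None passed, beside 0.566% of all genes at an adjusted p under 0.05, and none passed unadjusted, beside 10.8%. ATF4 was at -0.07 (-0.21 to 0.07) and DDIT3 at 0.16 (-0.08 to 0.39), and DDIT3 spread from 19.8 to 27.4 CPM in siLSM14A NT cells. In HU-treated cells 0 of the 9 passed, beside 0.802% of genes adjusted and 8.54% unadjusted, and DESeq2 called 0 in both treatments.

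In HU-treated cells the same-numbered total RNA libraries deviated together, and with the number as a block CHAC1 was higher in siLSM14A cells by 0.26 ± 0.071 (adjusted p = 0.013, edgeR), in a fit that called 6.85% of genes. At an unadjusted p under 0.05 that fit held 4 of the 9 (CHAC1, XBP1, PPP1R15B and ASNS), beside 19.1% of genes. CHAC1 was 19.1, 14.04 and 27.4 CPM in siCTRL and 23.1, 21.9 and 27.2 CPM in siLSM14A cells, so libraries 1 and 2 were higher and library 3 was level. Without the block the change was 0.24 ± 0.180 (adjusted p = 0.796, edgeR), and it ran from 0.03 to 0.545 when each library was left out. DDIT3 was at 22.5, 23.4 and 24.2 CPM in siCTRL and 24.6, 25.5 and 25.2 CPM in siLSM14A cells (adjusted p = 0.786, edgeR). PPP1R15B was at 143, 143 and 150.5 CPM in siCTRL and 152, 159 and 157 CPM in siLSM14A cells (log2 change 0.09 ± 0.052, adjusted p = 0.684, edgeR). Neither gene overlapped between the siRNAs, as a description only, and neither passed the test.

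In polysomal RNA, 0 of the 9 differed between the siRNAs in untreated cells, beside 0.0162% of all genes (1.96% unadjusted). In HU-treated cells 0 differed, beside 0.0653% (4.99% unadjusted), and 0 passed unadjusted in either fit. With all 24 libraries in one fit, PPP1R15B passed unadjusted upon HU, beside 1358 of 12855 genes. PPP1R15B was 77.2, 53.1 and 79.9 CPM in siCTRL HU and 80.6, 82.0 and 89.4 CPM in siLSM14A HU cells, with a change of 0.27 ± 0.168 (adjusted p = 0.739, edgeR) that came to 0.09 without siCTRL library 2. The others lay between -0.21 and 0.09 upon HU and between -0.14 and 0.28 without it. DESeq2 called 0 of the 9 in both.

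The log2 ratio of ATF4 was -0.76, -0.71 and -0.70 in siLSM14A HU and -0.49, -0.44 and -0.64 in siCTRL HU cells, with no overlap, but the change of -0.19 ± 0.128 did not pass (adjusted p = 0.778, edgeR) and was 0.018 with the GC correction. DDIT3 was at -0.24 (-0.21 with the correction), TRIB3 at -0.21 (-0.0012), CHAC1 at -0.20 (0.03) and PPP1R15B at 0.17 (0.057). In untreated cells the 9 changes in ratio lay between -0.10 and 0.17. None of the 9 passed in either treatment, adjusted or not, beside 0% of genes adjusted in both and 0.87% and 3.85% unadjusted. A difference in the effect of HU between the siRNA groups passed for no member in total RNA, polysomal RNA or the ratio (interaction test in edgeR, 0 of 9 adjusted and unadjusted, beside 0% of genes adjusted and 2.9%, 1.07% and 1.9% unadjusted). The widest interval of such a difference was that of the CHAC1 ratio, from -1.31 to 0.70.

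Other genes of the pathway were read from 5 lists, in which the tests without pairing called 1 gene over all comparisons of conditions. That gene was DERL2, a component of endoplasmic reticulum-associated degradation, which was lower in total RNA of siLSM14A HU than siCTRL HU cells by 0.36 on the log2 scale (-0.36 ± 0.058, adjusted p = 0.0111, edgeR). It was 1 of 28 ATF6 and XBP1 target genes, in a comparison that called 0.802% of all genes. DERL2 lost the call in 3 of 12 alternatives, at -0.33 without siLSM14A HU library 1, -0.37 without library 2 and -0.35 with all 24 libraries in one fit. Of 34 tested ATF4 and CHOP target genes, 0 were called upon HU in either siRNA group, with a median log2 change in total RNA of -0.07 in siCTRL and 0.05 in siLSM14A cells, beside 0.00 over all genes. The median of the ATF6 and XBP1 targets was 0.04 and 0.00. The 16 genes of eIF2 kinases and eIF2 machinery had medians of 0.03 and 0.01, the 6 sensors and processing enzymes -0.04 and 0.03, and the 8 tested other mRNAs with regulatory upstream frames 0.02 and -0.10, all with 0 called. With the replicate block, 1 ATF4 and CHOP target gene was lower upon HU in siCTRL total RNA, beside 0.12% of all genes, and 5 were higher and 0 lower in siLSM14A HU against siCTRL HU total RNA, beside 6.85% of all genes. In that last fit 3 ATF6 and XBP1 targets, 1 gene of the eIF2 machinery and 1 of the other upstream-frame mRNAs were lower.

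The lists were also compared between polysomal and total RNA, where 40.2% of all genes were higher and 44.2% lower, or 35.9% and 42.5% with the GC correction. The genes named from each list were chosen by p and not by the size of their ratio. Of the 34 ATF4 and CHOP targets 23 were higher and 6 lower, with a median log2 ratio of 0.56 beside -0.06 over all genes. They included the synthetase AARS1 (1.91) and the serine and glycine enzymes PHGDH (1.78) and SHMT2 (1.58), and on the lower side the transcription factor CEBPG (-1.06), the cystine transporter SLC7A11 (-0.72) and the tRNA exporter XPOT (-0.51). With the GC correction 22 were higher and 4 lower, SLC7A11 turned to 0.18 (adjusted p = 0.00204, edgeR) and XPOT to 0.04 (adjusted p = 0.502, edgeR). CEBPG stayed lower at -0.58.

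Of the 28 ATF6 and XBP1 targets 17 were higher and 8 lower (median 0.44), with the chaperones HYOU1 (1.45), P4HB (1.04) and CALR (1.02) among the higher and the degradation factors EDEM1 (-0.81) and SEL1L (-0.60) and the thioredoxin-like TXNDC11 (-0.27) among the lower. SEL1L went to 0.04 with the GC correction (adjusted p = 0.523, edgeR), and the list then had 21 higher and 4 lower. The eIF2 list had 6 of 16 higher and 7 lower, near the shares of all genes. GCN1 (2.10), which activates the kinase GCN2, and the eIF2B subunits EIF2B4 (1.22) and EIF2B5 (0.87) were among the higher. IMPACT (-1.35), an inhibitor of GCN2, and the kinases EIF2AK4 (GCN2, -0.89) and EIF2AK1 (HRI, -0.42) were among the lower. With the correction this list had 10 higher and 4 lower.

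Of the 8 tested other mRNAs with known regulatory upstream frames, 0 were higher and 6 lower, with a median of -0.77, and IBTK (-1.35), IFRD1 (-1.06) and AMD1 (-0.99) were among them. With the GC correction 0 were higher and 7 lower, with a median of -0.37. Of the 6 sensors and processing enzymes, the tRNA ligase RTCB (0.95), which joins the XBP1 exons, and ATF6B (1.01) were higher. The proteases MBTPS2 (-0.60) and MBTPS1 (-0.32) and the sensor ERN1 (IRE1, -0.31) were lower, and MBTPS2 went to 0.05 with the correction (adjusted p = 0.457, edgeR).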

How the data were processed

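Polyadenylated RNA of total lysate and of pooled heavy gradient fractions was sequenced with a stranded kit. Per the labels and the study's methods, the authors trimmed reads with Trim Galore, aligned them to hg19 with STAR 2.6.1a and deposited raw read counts per gene, which are the only values used here. Of 20345 gene IDs, 19637 matched Gencode annotation of hg19 and 19086 were protein-coding and entered the tests. Library depth was 24789280 to 44897501 counts, and intervals for counts cover the spread between libraries.

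Counts were tested with edgeR 4.0.16 in R 4.3.3 (TMM normalization, filterByExpr with a minimum count of 10 and total of 15, quasi-likelihood test, Benjamini-Hochberg adjustment over all tested genes, threshold 0.05). Comparisons of conditions were fitted on the groups compared, and changes in ratio as the interaction of fraction and condition. CPM used TMM library sizes, and the log2 ratio of a pair was taken from these CPM values without a prior count. The log2 CPM behind the correlations, the SDs within conditions and the GC trends used a prior count of 2. GC correction used loess offsets per library (span 0.3). DESeq2 1.42.0, other size factors, no filter, all genes, replicate blocks and leaving out each library were alternatives. The method was tested on simulated data with planted changes larger than those of the member genes between conditions, so smaller changes were not covered.

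The labels number the replicates 1 to 3 without saying that they were separate cultures, so that p-values measure the spread between these libraries. Replicate numbers were taken to pair libraries where all 3 same-numbered correlations of deviations exceeded 0.1, which held for HU and NT in siCTRL cells (total RNA 0.185 to 0.268, polysomal RNA 0.183 to 0.453) and for siLSM14A and siCTRL in HU-treated total RNA (0.177 to 0.331). Different-numbered libraries were not compared across conditions. Between the fractions of siLSM14A NT cells, different-numbered libraries reached 0.188 and 0.415, so passing 0.1 does not by itself mark a pair. The rule used the same libraries that the block then tests, so p-values with the block may be too small. The genes and lists were chosen with earlier results of these data known. From each list, the genes named are those called with the smallest p, up to 3 in each direction. The gradient fractions pooled are described in more than one way in the sources. The study's methods name A2058 cells for the polysome experiment, while its figure legend on translation efficiencies names A375.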

Additional observations from a re-analysis of the deposited data

How the results depend on the processing

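For the comparisons of conditions, 0 of the 9 genes were called under any alternative in 13 of 15 comparisons, with DESeq2, other size factors, no filter, all genes of the table, all 24 libraries in one fit and each library left out. The exceptions were the fits with the replicate block, which called 1 gene (PPP1R15A) upon HU in siCTRL total RNA and 1 (CHAC1) between the siRNAs in HU-treated total RNA, and the block changed no other call of the 9 genes. Of 1890 values under alternatives in these comparisons, 166 had another sign without being called. Between polysomal and total RNA, 198 of 216 values kept direction and call. The GC correction, without and with the replicate block, turned PPP1R15A to -0.60 and -0.61, SLC7A11 to 0.18 in both, XPOT to 0.0421 in both, SEL1L to 0.0416 and 0.0399 and MBTPS2 to 0.0519 and 0.0506, and CHAC1 and TRIB3 lost their calls while XBP1 gained one. The cause was not tested.

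Counts over all genes moved more than those of the 9. For siLSM14A against siCTRL in untreated total RNA, 71 genes were called, against 200 by DESeq2, 45 with the block, 13 with all 24 libraries in one fit and 28 to 80 with a library left out. In HU-treated total RNA 100 were called, against 189 by DESeq2, 855 with the block, 17 with all 24 libraries and 46 to 101 with a library left out. In polysomal RNA the counts were 2 (8 by DESeq2, 4 without the filter, 27 with all 24 libraries) untreated and 8 (22, 10 and 29, and 40 with the block) upon HU, where leaving out a library gave 2 to 8. Upon HU in siCTRL total RNA 0 were called, against 1 by DESeq2, 15 with the block and 0 to 6 with a library left out. In siLSM14A cells leaving out a library gave 0 to 6 in total RNA, 0 to 1 in polysomal RNA and 0 to 16 for the ratio, and in siCTRL polysomal RNA it gave 0 to 2 and the block 1. DERL2 lost its call in 3 of 12 alternatives.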
